A study of Mus musculus with 10 samples.

Results

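Platelet-derived growth factors (Pdgfs) and their receptors were followed across the bud to cap transition of the mouse molar. The 2 receptor genes *Pdgfra* and *Pdgfrb* and the 4 ligand genes *Pdgfa*, *Pdgfb*, *Pdgfc* and *Pdgfd* were taken as a family by their Ensembl identifiers, with no threshold on their values, though earlier results of these data were known, and all 6 were among the 27528 genes of the expression table. Tooth germs of the first molar were dissected from wild type NMRI mice, an outbred stock, at the embryonic days E13.5 (the bud stage) and E14.5 (the cap stage). Each sample pooled whole germs, 12 to 18 of them, and its RNA was hybridized to 1 Affymetrix Mouse Exon Array 1.0, giving 5 arrays per stage numbered 1, 2, 4, 5 and 6. The study counts the 5 samples of a stage as biological replicates. How the pools of a stage were divided over litters is not given in the sources used here. The p-values therefore measure the spread between these arrays, which may be partly technical. No agent or engineered allele is named for either group, and stage is the sole difference that the labels give.

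Pdgf ligands act as dimers that bring a pair of receptor tyrosine kinases together on the surface of the receiving cell, and the joined receptors then signal through the Ras-Erk, phosphatidylinositol 3-kinase, phospholipase C and Stat routes. The receptor Pdgfra binds the A, B and C chains, whereas Pdgfrb binds mainly the B and D chains. In early tooth germs *Pdgfa* is known as an epithelial gene and *Pdgfra* as a mesenchymal one, so the pair is a textbook route from epithelium to mesenchyme, while *Pdgfb* of endothelium and *Pdgfrb* of pericytes form the classical pair of vessel walls.

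The bases upstream of a transcript start are shown here for *Pdgfra* and *Pdgfc*, a receptor and a ligand called lower at the cap stage. They are also shown for *Pdgfa*, the ligand called higher. They are RefSeq sequences of the build GRCm38.p6, written 5′ to 3′ on the strand of the gene. Each ends at the base before the start, and windows of this kind are reported for 4 of the 6 genes. Capitals mark matches to 4 searched motifs on either strand, the TATA box (TATAAA), the CCAAT box (CCAAT), the GC box (GGGCGG) and a homeodomain core (TAATTA). The windows lie at chr5:75152001-75152250 (plus strand) for *Pdgfra*, at chr3:81036166-81036415 (plus strand) for *Pdgfc* and at chr5:138994945-138995194 (minus strand) for *Pdgfa*.
Pdgfra: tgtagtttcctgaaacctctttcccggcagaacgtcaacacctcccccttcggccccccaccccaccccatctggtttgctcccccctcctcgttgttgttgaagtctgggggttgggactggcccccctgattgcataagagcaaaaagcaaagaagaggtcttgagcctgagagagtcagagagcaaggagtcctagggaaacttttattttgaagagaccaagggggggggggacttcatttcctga
Pdgfc: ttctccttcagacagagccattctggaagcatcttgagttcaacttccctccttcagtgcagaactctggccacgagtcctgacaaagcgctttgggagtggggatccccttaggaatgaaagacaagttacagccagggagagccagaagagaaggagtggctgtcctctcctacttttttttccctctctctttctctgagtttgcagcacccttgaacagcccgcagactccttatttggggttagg
Pdgfa: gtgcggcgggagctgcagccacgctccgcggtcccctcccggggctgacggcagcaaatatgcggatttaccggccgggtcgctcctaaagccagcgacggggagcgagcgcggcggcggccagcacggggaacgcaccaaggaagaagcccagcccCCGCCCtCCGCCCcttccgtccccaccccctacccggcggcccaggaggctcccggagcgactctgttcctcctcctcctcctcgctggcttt
The *Pdgfa* window held 2 GC boxes, read on the opposite strand at -93 to -88 and at -86 to -81 from the start, which do not overlap each other or another motif. The windows of *Pdgfra* and *Pdgfc* held none of these letters. A second listed start of *Pdgfa* had 1 GC box at -60 to -55, and *Pdgfd* had a TATA box at -160 to -155. Of 32536 windows of the same length, 33% held a GC box, 12.3% a TATA box, 33.8% a CCAAT box and 4.84% the homeodomain core. Guanine and cytosine made up 72.4% of the *Pdgfa* window, 54.4% of that of *Pdgfra* and 50.8% of that of *Pdgfc*, against a median of 52.4% over all windows. A match is a description of the letters in the window and not a bound site.

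From bud to cap, both receptors fell, *Pdgfc* fell and *Pdgfa* rose. Thus 4 of the 6 genes differed between the stages at an adjusted p under 0.05 (limma, Benjamini-Hochberg adjustment over all 27528 genes), 3 of them lower and 1 higher at E14.5. Of all genes 7.85% differed, 3.49% lower and 4.36% higher. Which direction held more genes was not stable, as 49.6% of the calls were higher with array weights and 47.1% without E13.5 replicate 2. *Pdgfb* and *Pdgfd* did not pass, with unadjusted p of 0.0139 and 0.0191. For 5 of the 6 genes no array of a stage lay within the range of the other stage, 3 lower and 2 higher at E14.5, where 8.84% of all genes were separated in this way, 4.01% lower and 4.82% higher. Genes of the study's own lists, which hold mainly tooth and signalling genes, are a closer background than the whole table, and of 394 such genes other than the Pdgf genes 31.5% differed.

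**Figure D1:**
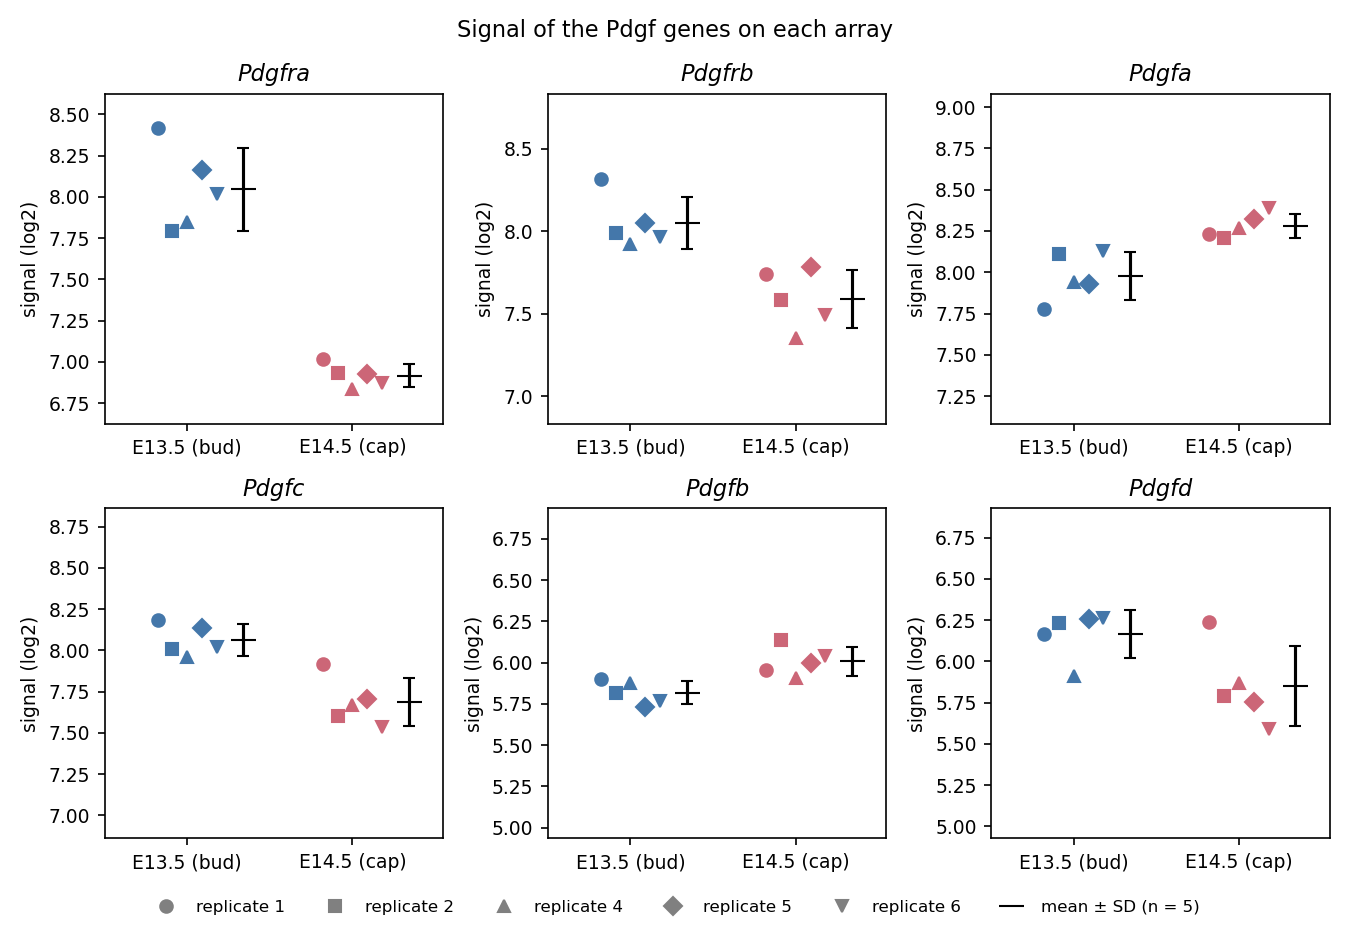
Signal of the 6 Pdgf genes (log2, vertical axes of equal length but separate position) on each of the 10 arrays, E13.5 in blue and E14.5 in red, with a symbol per replicate number and the mean ± SD (n = 5) in black. The stages lie apart for *Pdgfra* by 0.78, and only *Pdgfd* has arrays of the stages overlapping.

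*Pdgfra* (ENSMUSG00000029231), the receptor of the A and C chains, had the largest change of the 6 genes. Its log2 signal at E13.5 was 8.42, 7.80, 7.85, 8.16 and 8.02 on replicates 1, 2, 4, 5 and 6. At E14.5 it was 7.02, 6.94, 6.84, 6.93 and 6.87 on the same numbers. Every cap stage array was thus below every bud stage array, and the spread was narrower at the cap stage than at the bud stage. The mean went from 8.05 ± 0.25 to 6.92 ± 0.07 (SD, n = 5). This was a difference of -1.13 ± 0.11 (SE, adjusted p = 6.55e-05 in limma), or 2.19-fold lower signal (95% interval 1.85 to 2.58). In the order of all 27528 genes from the largest fall, *Pdgfra* stood at place 50. In bulk tissue, fewer cells of a type and less RNA per cell cannot be told apart, which holds for every change given here.

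*Pdgfrb* (ENSMUSG00000024620), the receptor of the B and D chains, had a smaller fall of signal. Its bud stage signals were 8.32, 7.99, 7.92, 8.05 and 7.97 in the same order of replicates. The cap stage signals were 7.74, 7.59, 7.35, 7.78 and 7.49. No array of one stage reached into the other, and the nearest arrays were 0.14 apart. The mean moved from 8.05 ± 0.16 to 7.59 ± 0.18 (SD, n = 5), lower by a log2 difference of -0.46 ± 0.10 (SE, adjusted p = 0.0158 in limma), or 1.37-fold lower (95% interval 1.18 to 1.60).

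Whether the signals of the receptors fell by the same amount was tested on their difference within each array. The signal of a gene depends on its probes, so the difference itself is not a ratio of transcripts. Its change between stages is a change of the *Pdgfra* signal relative to the *Pdgfrb* signal. Whether the transcripts changed unequally is not shown, as how signal follows transcript number was not measured for either gene. *Pdgfra* minus *Pdgfrb* went from -0.00 ± 0.13 at E13.5 to -0.67 ± 0.13 at E14.5 (SD, n = 5), so that it shifted by -0.67 ± 0.08 (SE). The stages did not overlap (exact permutation p = 0.00794 over 252 splits of the arrays, two-sided, adjusted over 4 pairs 0.0106), and 0.00794 is the smallest p that 5 against 5 arrays allow. Among the 4 pairs are *Pdgfa* minus *Pdgfc* and *Pdgfa* minus *Pdgfra*, whose unadjusted p follows from the single genes. The adjusted p leans on these pairs. The signal of *Pdgfra* therefore fell by more than that of *Pdgfrb*.

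*Pdgfa* (ENSMUSG00000025856), which encodes the A chain, was the ligand called higher at the cap stage. At the bud stage its log2 signal was 7.78, 8.11, 7.94, 7.93 and 8.13. At the cap stage it was 8.23, 8.20, 8.27, 8.32 and 8.39, above all bud stage arrays but with a gap of only 0.07 to the nearest. The mean rose from 7.98 ± 0.15 to 8.28 ± 0.07 (SD, n = 5), by 0.30 ± 0.08 (SE, limma adjusted p = 0.0358), or 1.23-fold (95% interval 1.10 to 1.39). This call was the least secure of the 4. With 1 array left out in turn it was kept only without E13.5 replicate 2 or E13.5 replicate 6, with changes between 0.25 and 0.34, and over all alternatives the adjusted p ran from 0.00464 to 0.105.

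*Pdgfc* (ENSMUSG00000028019), whose C chain is secreted in a latent form and activated by cutting off its CUB domain, moved in the other direction. Bud stage signals were 8.19, 8.01, 7.96, 8.14 and 8.02. Cap stage signals were 7.92, 7.60, 7.67, 7.70 and 7.53. E14.5 replicate 1 was the highest cap stage array and came within 0.04 of the lowest bud stage array, without overlap. The mean dropped from 8.06 ± 0.09 to 7.69 ± 0.15 (SD, n = 5), with a difference of -0.38 ± 0.08 (SE, adjusted p = 0.0137 in limma), or 1.30-fold lower (95% interval 1.15 to 1.47).

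The A and C chains share the receptor Pdgfra, so their difference within an array was compared as well. *Pdgfa* minus *Pdgfc* went from -0.08 ± 0.22 to 0.60 ± 0.19 (SD, n = 5), a shift of 0.68 ± 0.13 (SE) with no overlap of the stages (exact permutation p = 0.00794, two-sided, adjusted 0.0106). The lowest cap stage difference was 0.31 and the highest bud stage difference 0.11. The ligand *Pdgfa* and its receptor *Pdgfra* moved apart further still, from -0.07 ± 0.37 to 1.36 ± 0.12 (SD, n = 5), a shift of 1.43 ± 0.18 (SE, exact permutation p = 0.00794, two-sided, adjusted 0.0106). At E13.5 this difference ran from -0.64 on replicate 1 to 0.32 on replicate 2, whereas at E14.5 it lay between 1.22 and 1.52. *Pdgfa* was higher, and *Pdgfc* and *Pdgfra* lower, on every cap stage array than on any bud stage array. The separation of both differences and their unadjusted p therefore follow from the single genes and are no further evidence.

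**Figure D2:**
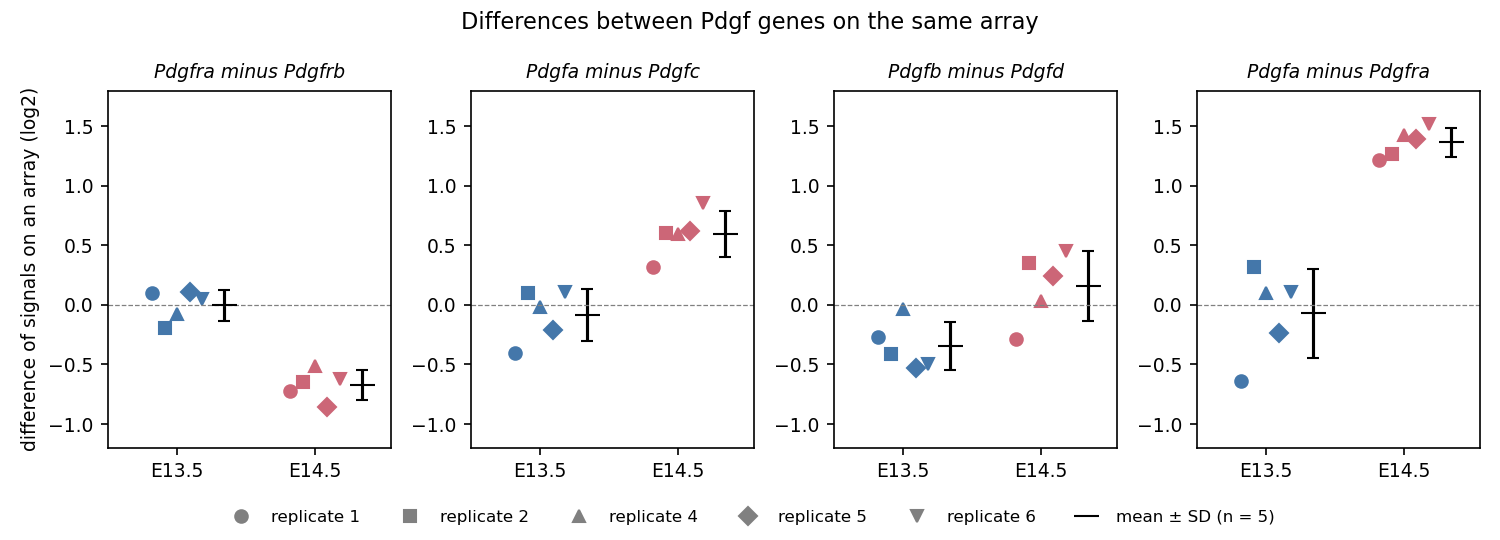
Difference of the log2 signals of a pair of Pdgf genes on the same array (vertical axis) by stage, with a symbol per replicate number and the mean ± SD (n = 5) in black. The stages separate for *Pdgfra* minus *Pdgfrb*, *Pdgfa* minus *Pdgfc* and *Pdgfa* minus *Pdgfra*, and overlap for *Pdgfb* minus *Pdgfd*. For *Pdgfa* minus *Pdgfc* and *Pdgfa* minus *Pdgfra* the separation follows from the single genes.

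For the ligands of Pdgfrb neither difference passed the threshold. *Pdgfb* (ENSMUSG00000000489), the B chain that endothelial cells use to recruit pericytes, read 5.90, 5.82, 5.88, 5.73 and 5.77 at the bud stage. It read 5.96, 6.14, 5.91, 6.001 and 6.04 at the cap stage, each above the highest bud stage array, the closest by 0.00709. The means were 5.82 ± 0.07 and 6.01 ± 0.09 (SD, n = 5), a difference of 0.19 ± 0.07 (SE) that did not pass (limma adjusted p = 0.121). The 95% interval was 0.05 to 0.33 before adjustment.

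*Pdgfd* (ENSMUSG00000032006), the D chain, which like the C chain needs its CUB domain cut off, was the gene whose stages overlapped. Its signals were 6.17, 6.23, 5.91, 6.26 and 6.27 at E13.5. They were 6.24, 5.79, 5.87, 5.76 and 5.59 at E14.5. Cap stage replicate 1 lay among the bud stage arrays and bud stage replicate 4 lay near the other cap stage ones. The means were 6.17 ± 0.15 and 5.85 ± 0.24 (SD, n = 5), and the difference of -0.32 ± 0.12 (SE) did not pass (limma adjusted p = 0.149). Without E14.5 replicate 1 the difference was -0.42 and passed (limma adjusted p = 0.0206). Within an array, *Pdgfb* minus *Pdgfd* changed by 0.51 ± 0.16 (SE), from -0.35 ± 0.20 to 0.16 ± 0.29 (SD, n = 5; exact permutation p = 0.0238, two-sided, adjusted 0.0238), with overlap of the stages. No background measurement was used here, so the signal of these genes over background is unknown.

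**Figure D3:**
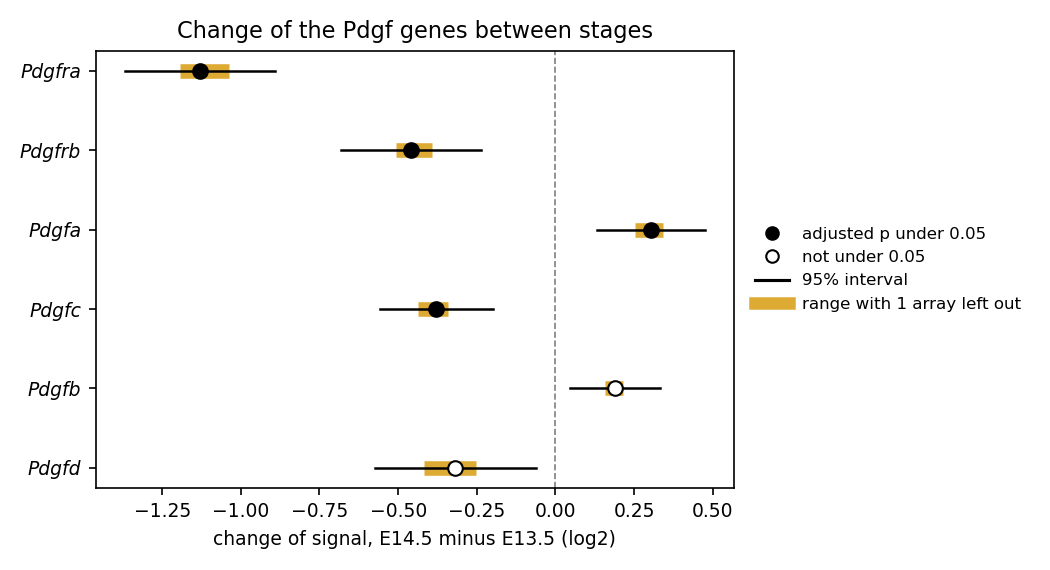
Change of the log2 signal from E13.5 to E14.5 (horizontal axis) for each Pdgf gene, with the 95% interval as a line, the range with 1 array left out as a yellow bar, and filled points where the limma adjusted p was under 0.05. The change of *Pdgfra*, -1.13, lies apart from the others, which run from -0.46 to 0.30.

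Levels within a stage varied together for some of the genes, in part through E13.5 replicate 1. E13.5 replicate 1 had the highest *Pdgfra*, *Pdgfrb* and *Pdgfc* and the lowest *Pdgfa* of the bud stage arrays, and E14.5 replicate 1 had the highest *Pdgfra*, *Pdgfc* and *Pdgfd* of the cap stage. With the stage means removed, the Pearson r over the 10 arrays was 0.74 between the receptors, 0.66 between *Pdgfra* and *Pdgfc*, 0.81 between *Pdgfc* and *Pdgfd* and -0.71 between *Pdgfra* and *Pdgfa*. These are descriptions over arrays that share their RNA pools and normalization across genes. E13.5 replicate 1 weighs on the r among *Pdgfra*, *Pdgfrb*, *Pdgfc* and *Pdgfa*, and no r without that array is given. *Pdgfra* and *Pdgfb* showed little relation on this measure, with an r of 0.11.

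Markers of the tissues in the germ moved over the same interval. The whole germ holds epithelium and mesenchyme, and markers of both were present. Of 8 dental mesenchyme genes 6 fell and 0 rose, led by the transcription factor genes *Lhx8* (-1.45), *Pax9* (-1.18), *Lhx6* (-1.09) and *Msx1* (-0.98), while *Runx2* (-0.09) and *Dlx2* (0.08) did not pass. Their log2 summed signal was 11.27 to 11.49 on the bud stage arrays and 10.45 to 10.56 on the cap stage arrays. Of 8 dental epithelium genes 6 rose, among them *Sp6* (1.99), *Cdh3* (0.83) and *Edar* (0.72), 0 fell, and *Foxi3* (1.02) was among the 2 that did not pass. Their log2 summed signal was 10.56 to 11.27 at E13.5 and 11.75 to 12.01 at E14.5. In both lists 75% of the genes were called, against 7.85% of all genes and 31.5% of the 394 genes of the study's lists. The fall of *Pdgfra* was within the range of the mesenchyme genes, and the part of tissue proportions in the changes of *Pdgfra*, *Pdgfrb*, *Pdgfc* and *Pdgfa* was not tested.

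E13.5 replicate 1, the extreme bud stage array for *Pdgfra*, *Pdgfrb*, *Pdgfc* and *Pdgfa*, was also the lowest for the epithelium markers. On this array the median of the epithelium list was 7.30, against 7.71 to 7.88 on the other bud stage arrays. Genes outside the marker lists were apart on it as well, in both directions. *Dvl3* read 7.64 on it, against 8.11 to 8.27 on the other bud stage arrays, and *Axin1* 7.39, against 7.72 to 7.87. *Dkk2* was instead highest there, at 8.03 against 7.15 to 7.45. What sets E13.5 replicate 1 apart was not tested. Without that array *Pdgfra* changed by -1.04, *Pdgfrb* by -0.39 and *Pdgfc* by -0.35, all 3 with an adjusted p under 0.05, and *Pdgfa* by 0.25 (limma adjusted p = 0.0668).

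**Figure D4:**
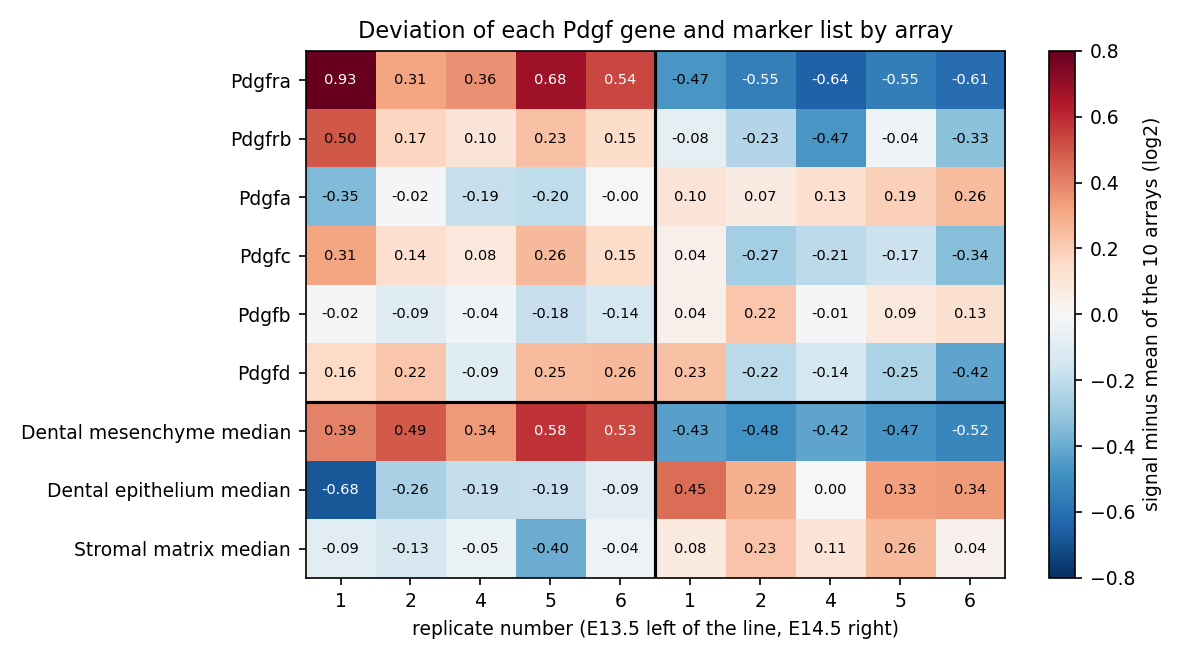
Deviation of each Pdgf gene and of the medians of 3 marker lists from their own mean over the 10 arrays (colour and printed value, log2), with E13.5 arrays left and E14.5 arrays right of the line. *Pdgfra* runs from 0.93 on E13.5 replicate 1 to -0.64 on E14.5 replicate 4, and the epithelium median is lowest, at -0.68, on E13.5 replicate 1.

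Vessel and stromal markers were few among the genes with a known identifier. Of the mural cell genes, which mark pericytes and vascular smooth muscle, *Cspg4* rose by 0.62 ± 0.07 (SE, limma adjusted p = 0.000208), opposite in direction to *Pdgfrb*, and *Notch3* changed by -0.17 (limma adjusted p = 0.333). The summed log2 signal of these 2 genes was 7.69 to 7.97 at the bud and 7.86 to 8.11 at the cap stage. For the endothelial genes *Dll4* (-0.16) and *Notch4* (-0.09), 0 of 2 passed in limma or at an unadjusted p under 0.05, and their summed signal was 6.63 to 6.96 at E13.5 and 6.60 to 6.77 at E14.5. Of 9 stromal matrix genes 4 fell, the laminin chains *Lama2* (-1.02) and *Lama4* (-0.77), *Postn* (-0.60) and *Tnc* (-0.52), and 2 rose, *Dcn* (0.41) and *Col1a1* (0.32), whose calls were lost in 8 and 6 of 16 alternatives. The stromal summed signal was 11.65 to 11.85 and then 11.40 to 11.57. The median change of the stromal genes was -0.07, although the median of the list rose on the arrays, from a mean of 8.09 to 8.37. Of 3 glial genes only *Ptprz1* (-1.16) passed, and *Spp1* (1.89) and *Alpl* (0.74) were the called ones of 3 bone genes. Called were 50% of the mural, 0% of the endothelial, 66.7% of the stromal, 33.3% of the glial and 66.7% of the bone genes. The share was 7.85% of all genes and 31.5% of the 394 genes of the study's lists.

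Downstream of the receptors lie 26 genes of receptor tyrosine kinase signalling, from the adaptors through Ras, Raf and Mapk to phosphatidylinositol 3-kinase. Of these 1 rose, 2 fell and 23 did not pass. Thus 11.5% were called, against 7.85% of all genes and 31.5% of the 394 genes of the study's lists. Their median change was 0.00 against -0.01 over all genes. *Gab1*, a docking adaptor that recruits phosphatidylinositol 3-kinase and Shp2 to active receptors, fell by 0.60 on the log2 scale, from 8.63 ± 0.16 to 8.03 ± 0.09 (SD, n = 5; limma adjusted p = 0.000906), without overlap of the stages, and kept its call in all 16 alternatives. *Rps6ka3*, the Erk-activated kinase Rsk2, changed by -0.28 (limma adjusted p = 0.0286), and *Pik3r2*, a regulatory subunit of phosphatidylinositol 3-kinase, by 0.35 (limma adjusted p = 0.0399). These calls were lost in 10 and in 8 of 16 alternatives, and the count of called transducers ran from 1 to 5.

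Of 13 Jak-Stat genes 2 rose, 1 fell and 10 did not pass. This was 23.1% called, against 7.85% of all genes and 31.5% of the 394 genes of the study's lists. *Stat6*, a transcription factor activated by tyrosine phosphorylation, rose by 0.40 ± 0.07 (SE, limma adjusted p = 0.00367) and kept its call in all 16 alternatives. The kinase genes *Jak3* (0.24) and *Jak2* (-0.28) passed here and lost the call in 10 and 9 of them, so that the count ran from 1 to 7.

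Early response and feedback genes showed larger changes. Of the 5 genes 60% were called, against 7.85% of all genes and 31.5% of the 394 genes of the study's lists. *Jun*, an immediate early transcription factor gene, rose by 1.03 ± 0.17 (SE, limma adjusted p = 0.00266), and the feedback inhibitors of the Ras-Erk route went in opposite directions, *Spry2* by 0.70 (limma adjusted p = 0.00142) and *Spry4* by -0.84 (limma adjusted p = 0.000331). *Fos* (0.73) and *Egr1* (0.56) did not pass, and both were highest among the bud stage arrays on replicate 1, at 7.57 and 7.76. Without E13.5 replicate 1 all 5 genes of this list passed. These genes are known to respond to many receptors besides those of Pdgf.

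Other receptor tyrosine kinases are set beside the Pdgf receptors. Called were 28.6% of them, against 7.85% of all genes and 31.5% of the 394 genes of the study's lists. Of 7 such genes, the ephrin receptor gene *Epha7* fell by 1.12 (limma adjusted p = 1.85e-05), beside -1.13 for *Pdgfra*, and *Fgfr2* rose by 0.55 (limma adjusted p = 0.000946). The other 5, *Fgfr1* (0.19), *Fgfr3* (0.18), *Egfr* (0.18), *Fgfr4* (-0.05) and *Ret* (-0.10), did not pass. The proteases and co-factors *Furin*, *Plat*, *Plau*, *Nrp1* and *Pdgfrl* were not analysed here, as 0 of these 5 had an identifier among the study's pairs of symbol and identifier.

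**Figure D5:**
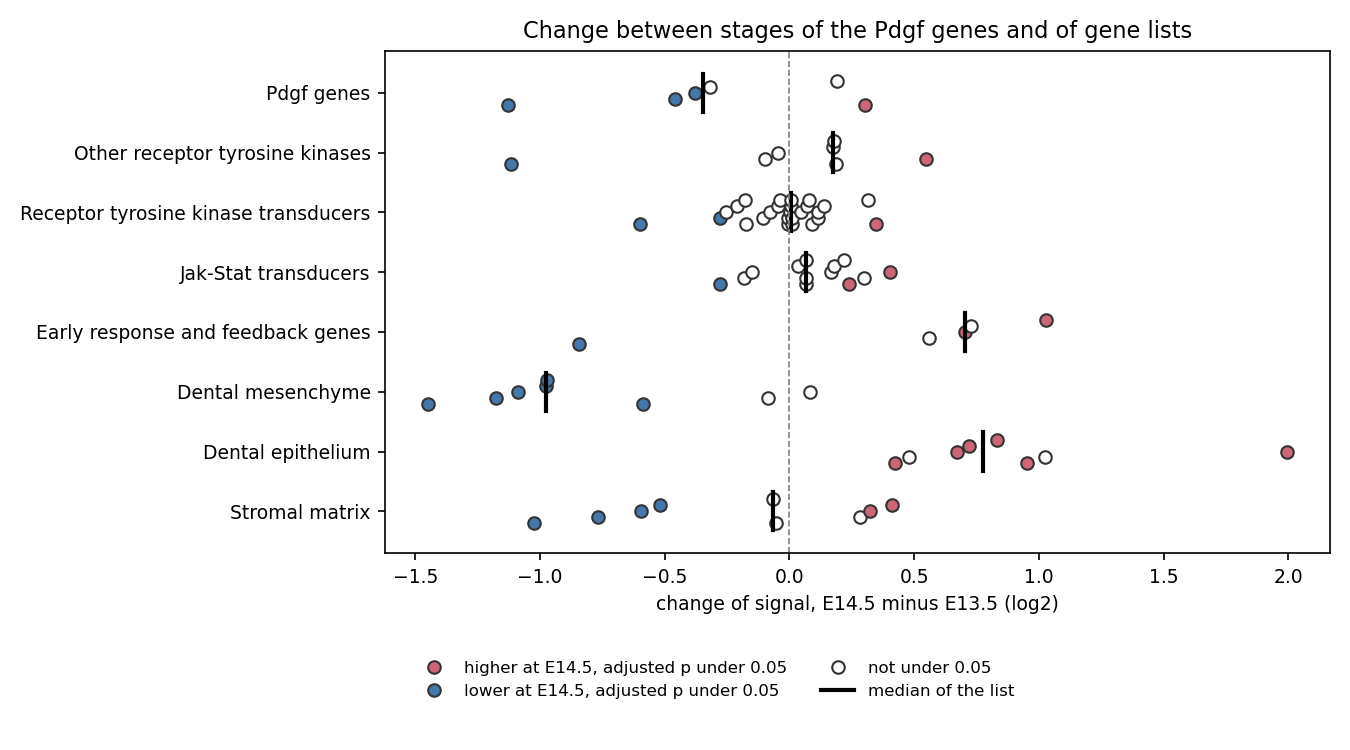
Change of log2 signal from E13.5 to E14.5 (horizontal axis) of each gene in the Pdgf family and in 7 lists, filled red or blue where the limma adjusted p was under 0.05, with the median of each list as a bar. The transducers centre on 0.00, the dental mesenchyme genes on -0.97 and the dental epithelium genes on 0.78.

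The genes most like each Pdgf gene over the 10 arrays were sought among the 394 others with a symbol, by Pearson r. *Pdgfra* was closest to *Gab1* (0.987), *Ptprz1* (0.985) and *Lhx8* (0.982). *Pdgfrb* was closest to *Mdk* (0.955), *Gli3* (0.945) and *Gab1* (0.944), and *Pdgfc* to *Frzb* (0.972), *Dync2h1* (0.942) and *Gab1* (0.939). *Gab1* was therefore among the nearest 3 of each of the genes called lower, but not of *Pdgfd*, which was lower without passing. *Pdgfa* had *Notch1* (0.967) and *Lrp5* (0.961) among its nearest 3, while *Pdgfb* was nearest to *Wnt3a* (0.933), *Fgf3* (0.930) and *Jun* (0.892), and *Pdgfd* to *Rab23* (0.812), *Frzb* (0.810) and *Slitrk6* (0.809). The stage difference enters these values, since the arrays form 2 groups.

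With the stage means removed, other genes came first for most. For *Pdgfra* they were *Dync2h1* (0.960), *Gab1* (0.905) and *Fzd4* (0.876), while for *Pdgfrb* the same 3 genes *Mdk* (0.847), *Gli3* (0.837) and *Gab1* (0.828) remained. *Pdgfa* was then nearest to *Grk2* (0.969), *Dvl2* (0.929) and *Fzd2* (0.920), and *Pdgfc* to *Frzb* (0.891), *Jag1* (0.871) and *Adam17* (0.846). *Pdgfb* had *Aqp5* (0.949), *Bmp10* (0.884) and *Fgf3* (0.819), and *Pdgfd* had *Slit3* (0.791), *Ift57* (0.747) and *Jag1* (0.727). All of these r are the highest of 394 and are given as descriptions over 10 arrays, with no r given without E13.5 replicate 1.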

How the data were processed

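RNA of first molar tooth germs was measured on 10 exon arrays, 5 per stage, grouped by the embryonic day in the labels. For each gene and array the authors deposited 1 value, normalized with aroma.affymetrix and the Brainarray custom probe grouping, version 23, and read here as a log2 signal because values ran from 1.30 to 12.83 with array medians of 5.06 to 5.22. The log base, background correction and summary model are not given in the sources used here. Normalization by the authors sets array levels, so changes are relative to the array. No pair of arrays was identical, and their lowest correlation across genes was 0.962. The number of arrays limits the precision.

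Stages were compared with limma 3.58.1 in R 4.3.3 (two-sided, the cap stage minus the bud stage, by lmFit and eBayes without covariates), adjusted over 27528 genes at 0.05, with no filter. Folds are 2 raised to the log2 change. Differences between genes of an array were tested by exact permutation with numpy 2.4.6 and scipy 1.17.1 in Python 3.11.15. The limma step was tested on simulated data. Alternatives were quantile normalization, median centring, array weights, a replicate block, no dim genes (lowest 25%), a trended robust prior and leaving out each array.

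The Pdgf genes, the gene lists and the pairs were chosen with earlier results of these data known. The text names the Pdgf genes, up to 4 called genes per list by size of change, uncalled genes in counts of 5 or fewer, and the 3 nearest genes by r; *Dcn* and *Col1a1* were added after their values were seen, and a few genes that the rule takes are not reported here. Symbols follow 399 pairs of symbol and identifier given by the study, 395 in the table. Promoter windows come from RefSeq; an upstream window is not printed for *Pdgfrb* or *Pdgfb*.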

Additional observations from a re-analysis of the deposited data

Results flagged for a closer look

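In groups of 5 arrays, an array was picked out when its gap to the nearest other array took up more than 0.71 of the range of the group. Of 42 groups examined, 6 held such an array, where chance gives about 1 in 20, or 2.1. Among the Pdgf genes it was *Pdgfd* on E13.5 replicate 4, at 5.91 against 6.17 to 6.27 on the other bud stage arrays. The medians of 5 gene lists also had an array apart. They were the early response and feedback genes at 7.76 and the dental epithelium genes at 7.30, both on E13.5 replicate 1, the stromal matrix genes at 7.83 on E13.5 replicate 5, the other receptor tyrosine kinases at 8.11 on E14.5 replicate 6 and the glial genes at 5.35 on E14.5 replicate 4. Their causes were not tested.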

How the results depend on the processing

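*Pdgfra*, *Pdgfrb* and *Pdgfc* kept their direction and their call in all 16 alternatives, with adjusted p up to 0.000411, 0.0498 and 0.0456. With 1 array left out their changes were -1.19 to -1.04, -0.51 to -0.39 and -0.44 to -0.34. *Pdgfa* lost its call when arrays were centred on their median (0.30, adjusted p = 0.0866), and with 1 array left out it was 0.25 to 0.34. *Pdgfb* passed with quantile normalization (0.21, adjusted p = 0.0339) and with array weights (0.23, adjusted p = 0.0184), and was 0.16 to 0.21 with 1 array left out. *Pdgfd* passed with array weights (-0.41, adjusted p = 0.0252) and was -0.42 to -0.25 with 1 array left out. The 3 called transducers became 1 with centring, 5 with array weights and 1 to 5 with 1 array left out. For the Jak-Stat genes 3 became 1 with centring, 7 with array weights and 1 to 3 with 1 array left out, and for the early response genes 3 became 5 with array weights and 3 to 5. Of all genes, the 2162 called became 3911 with array weights and 1479 to 2554 with 1 array left out. None of these changes reversed in direction. More genes were called higher than lower (1201 and 961), but 1939 against 1972 with array weights and 1204 against 1350 without E13.5 replicate 2. The causes were not tested.

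Replicate numbers are shared by the stages, and deviations of same-numbered arrays correlated at -0.08 to 0.51, above 0.1 in 3 of 5 pairs. These values do not settle whether the numbers pair the arrays, and the main fit took the arrays as unpaired. With the replicate block all 4 Pdgf calls were kept, and the Jak-Stat count was 1. Paired by number, the changes of *Pdgfra* minus *Pdgfrb* (-0.67), *Pdgfa* minus *Pdgfc* (0.68), *Pdgfb* minus *Pdgfd* (0.51) and *Pdgfa* minus *Pdgfra* (1.43) had exact sign-flip adjusted p of 0.0833, 0.0833, 0.125 and 0.0833, in a test that cannot go below 0.0625. For *Pdgfa* minus *Pdgfc* and *Pdgfa* minus *Pdgfra* the unadjusted sign-flip p also follows from the single genes. The adjusted sign-flip p of *Pdgfra* minus *Pdgfrb* leans on these pairs. Of 10 arrays 5 correlated best with their own number.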
